A study of Homo sapiens with 6 samples.

Results

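PTPRN2 and PTPRN are the 2 genes that encode the receptor-type protein tyrosine phosphatases of secretory granules. Both were found by Ensembl identifier, 2 of the 60483 gene rows counted, selected on their own levels in the comparison of genotypes, so these levels are described here without a test. RNA-seq was performed on HAP1 (C631) cells, a near-haploid line derived from chronic myelogenous leukemia, and on a HELLS KO derivative of the same line. The wild-type (HAP1) and HELLS KO groups held 3 libraries each, all from cells under normal growth without any drug. The HELLS KO cells were purchased as 1 line with an insertion of a single base in exon 3 of HELLS, so that an effect of HELLS loss and a difference that is particular to this line cannot be told apart. HELLS is an SNF2-family chromatin remodeler with a known part in DNA methylation of repeats and silent promoters. For these cells, however, the paper reports that global DNA methylation, measured by ELISA, was unaffected by the loss of HELLS. A global level does not describe single promoters, and methylation at the genes below was not tested. PTPRN2 was 16.5-fold lower in HELLS KO, whereas PTPRN was at or near 0 in both genotypes. Counts assigned to an antisense RNA inside the PTPRN2 body were also lower, in a call that was lost without HELLS KO replicate 1 or 2. Of the 29 tested genes within 5 Mb of PTPRN2, 1 was called lower, this RNA, and 1 higher, against 2.22% of all tested genes. The higher one was the non-coding LINC00689, in a call that was lost without any 1 of the 6 libraries. Of the 17 tested protein-coding genes in this window, 0 were called, which is near that share in a list this short.

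PTPRN (also named IA-2 or ICA512) and PTPRN2 (also named phogrin or IA-2beta) are single-pass membrane proteins of dense-core granules, the vesicles in which neuroendocrine and endocrine cells store peptide hormones. Each has a lumenal domain that is processed as the granule matures and a cytoplasmic phosphatase domain in which the catalytic site has diverged, so that activity on phosphotyrosine is largely lost. They take part in granule stability and regulated secretion, and both are known as autoantigens in autoimmune diabetes. HAP1 cells are not neuroendocrine cells, which is why the other components of the granule are described below along with the members.

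The total counts lay between 13641237 and 24400187 per library. The samples numbered 3 in each genotype are labelled as a batch and were the deepest, with 1.73 times the mean total of the other HAP1 libraries and 1.68 times that of the other HELLS KO libraries. A gene with 0 counts may have up to 3, and 3 counts corresponded to between 0.123 and 0.218 CPM (counts per 1000000 of the TMM-scaled library size), which covers counting error only. HELLS itself was at 121 ± 28.0 CPM in HAP1 against 103 ± 10.7 CPM in HELLS KO (SD, n = 3), a difference that was not called (adjusted p = 1.0, edgeR), and its gene counts cannot show a 1-base insertion. Of 11 myeloid markers, examined because of the origin of the line, 8 did not pass the filter on low counts. Of these, 5 had at most 3 counts in every library, SPI1 had 0 counts, and PTPRC had at most 2, whereas GATA2 was at 112 ± 17.5 CPM in HAP1 (SD, n = 3).

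The positions of the members have a feature in common that their selection did not use. In the GRCh38 annotation (GENCODE release 44), PTPRN2 lies on chromosome 7 from 157539056 to 158587823 and PTPRN on chromosome 2 from 219289623 to 219309648, both on the - strand. The canonical transcript of either gene has 23 exons, although the body of PTPRN2 spans 1048768 bases and that of PTPRN 20026 bases. Intron 19 of each transcript holds a gene of the miR-153 family, MIR153-2 in PTPRN2 (157574336 to 157574422) and MIR153-1 in PTPRN (219294111 to 219294200), each on the strand of its host. The mature miR-153-3p from MIR153-1 (RefSeq, GRCh38.p14, - strand of chromosome 2) is shown because it links the hosts, with its seed, bases 2 to 8, in capitals.
hsa-miR-153-3p: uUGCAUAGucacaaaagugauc
The rows of MIR153-1 and MIR153-2 had 0 counts in all 6 libraries. RNA-seq libraries of long fragments hold few mature miRNAs, so this gives no level of miR-153. No stretch of 31 bases of the annotated PTPRN2 transcripts occurred in the transcripts of PTPRN or of any other gene. The counts of PTPRN2 are therefore not divided with a near-identical annotated transcript, while sequence outside the annotated transcripts was not searched.

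Start-site sequences are shown for the genes that the results turn on and that could be matched to the RefSeq promoter table. They are PTPRN (near 0 in both genotypes), NCAPG2 (the nearest tested gene beyond the PTPRN2 start site, which was not called), LINC00689 (higher in HELLS KO) and QPCT (lower in HELLS KO). Each runs 5′ to 3′ on the strand of its gene from 250 bases before the start to 50 after it (GRCh38.p14), and capitals mark the dinucleotide CG, the substrate of DNA methylation in mammals.
PTPRN, chr2:219309352-219309651, - strand: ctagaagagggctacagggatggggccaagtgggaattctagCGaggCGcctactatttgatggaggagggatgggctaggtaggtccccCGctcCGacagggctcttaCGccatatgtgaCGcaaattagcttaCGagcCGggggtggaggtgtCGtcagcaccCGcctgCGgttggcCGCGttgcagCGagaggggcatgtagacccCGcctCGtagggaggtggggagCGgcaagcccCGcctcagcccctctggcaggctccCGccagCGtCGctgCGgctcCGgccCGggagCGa
NCAPG2, chr7:158704755-158705054, - strand: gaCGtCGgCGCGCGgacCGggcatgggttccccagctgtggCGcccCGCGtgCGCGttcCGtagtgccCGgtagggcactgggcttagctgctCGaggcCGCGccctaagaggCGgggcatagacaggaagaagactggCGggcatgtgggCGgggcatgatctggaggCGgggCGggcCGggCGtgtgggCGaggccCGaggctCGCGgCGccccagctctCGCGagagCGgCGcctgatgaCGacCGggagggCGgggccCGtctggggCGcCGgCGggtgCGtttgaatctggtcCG
LINC00689, chr7:159008104-159008403, + strand: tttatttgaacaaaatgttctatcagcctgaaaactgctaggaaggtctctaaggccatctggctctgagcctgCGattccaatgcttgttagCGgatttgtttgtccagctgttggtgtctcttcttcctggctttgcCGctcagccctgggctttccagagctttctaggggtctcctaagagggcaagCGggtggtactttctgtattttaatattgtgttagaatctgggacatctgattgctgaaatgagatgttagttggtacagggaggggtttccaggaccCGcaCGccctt
QPCT, chr2:37344380-37344679, + strand: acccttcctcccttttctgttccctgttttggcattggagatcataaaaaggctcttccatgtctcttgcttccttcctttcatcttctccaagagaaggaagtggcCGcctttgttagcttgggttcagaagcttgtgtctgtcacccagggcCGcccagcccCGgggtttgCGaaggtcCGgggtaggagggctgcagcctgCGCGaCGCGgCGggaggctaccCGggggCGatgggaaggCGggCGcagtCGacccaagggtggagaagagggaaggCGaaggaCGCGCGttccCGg
The PTPRN window held 25 CG dinucleotides, NCAPG2 41, LINC00689 6 and QPCT 20. Over 35116 promoter windows of 300 bases the median was 14. At least as many as in PTPRN were found in 32.0% of the windows, as in NCAPG2 in 6.69%, as in LINC00689 in 66.3% and as in QPCT in 41.2%. The LINC00689 window follows the RefSeq start, which is not the start of the gene in GENCODE. The sequence CG reads the same on either strand, and its number describes the window without saying whether it was methylated.

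PTPRN2 was expressed at a moderate level in HAP1 and at a low level in HELLS KO. It had 387, 389 and 659 counts in HAP1 replicates 1, 2 and 3 and 22, 26 and 41 counts in HELLS KO replicates 1, 2 and 3. After scaling, this was 27.2, 28.3 and 27.5 CPM in HAP1 against 1.51, 1.82 and 1.68 CPM in HELLS KO. All HELLS KO libraries lay far below all HAP1 libraries, and the libraries of a genotype differed little from each other. The mean was 27.7 ± 0.565 CPM in HAP1 against 1.67 ± 0.154 in HELLS KO (SD, n = 3), which left 6.05% of the HAP1 level. The fitted log2 fold change was -4.04 (standard error 0.19), with no test because the gene was chosen for this value. Bulk counts cannot tell fewer expressing cells from less RNA per cell.

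Each pair of equal replicate numbers gave nearly the same ratio. HAP1 was above HELLS KO by 18.0 times in replicate 1, 15.55 times in replicate 2 and 16.3 times in replicate 3, the labelled batch. The counts of PTPRN2 followed the depth of replicate 3, which had 1.70 times the counts of the other replicates in HAP1 and 1.71 times in HELLS KO, close to the ratios of the total counts. The residual signal in HELLS KO was above the floor in every library, since 22 counts or more were found where 3 is the limit.

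Of the 17925 genes that passed the filter on low counts, 129 were called lower and 269 higher in HELLS KO, that is, 0.72% and 1.5% (edgeR's quasi-likelihood test, adjusted p under 0.05 and at least a 2-fold change). With the replicate number as a block, 267 were lower. The number of lower genes was 69 without HAP1 replicate 1, 84 without HAP1 replicate 2, 62 without HELLS KO replicate 1 and 40 without HELLS KO replicate 2. That of higher genes was 173 without HAP1 replicate 1, 160 without HELLS KO replicate 1 and 112 without HELLS KO replicate 2. PTPRN2 is among the genes of this fit, but since it was chosen for its decrease, nothing is read from its place there. For reference, the libraries of the genotypes did not overlap in 10.1% of all tested genes, and in 5.09% every HELLS KO library was below every HAP1 library.

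PTPRN, the other member, was barely detected in either genotype. It had 1, 6 and 0 counts in HAP1 against 3, 1 and 2 counts in HELLS KO, and only HAP1 replicate 2 exceeded the limit of 3. The genotypes overlapped, with 7 counts over the HAP1 libraries and 6 over the HELLS KO libraries. The gene did not pass the filter on low counts, and no fold change is given. Part of even this count is uncertain, since 157 stretches of 31 bases of PTPRN transcripts also occur, on either strand, in the antisense gene ENSG00000230432 inside its body, which had 1 count in all. A fall of PTPRN was not detectable at this depth, and a rise was not seen, since the genotypes overlapped.

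**Figure D1:**
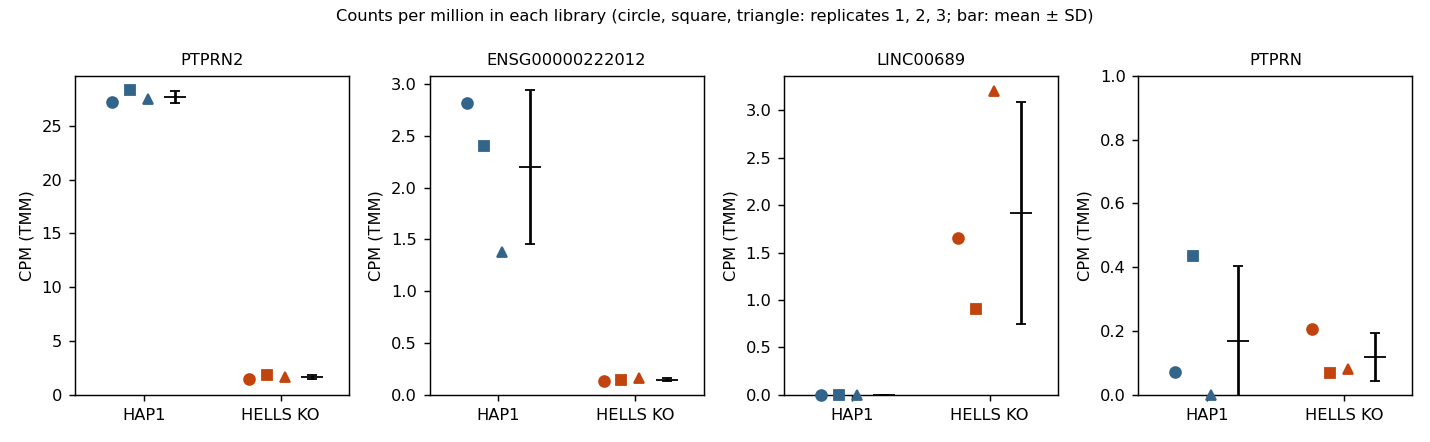
Level in CPM (TMM scaling, linear axes with a different range in each panel) of PTPRN2, its antisense RNA ENSG00000222012, the nearby LINC00689 and PTPRN, with 1 symbol per library and mean ± SD (n = 3) as bars. PTPRN2 is near 27.7 CPM in HAP1 against 1.67 in HELLS KO, and the counts assigned to ENSG00000222012 are also lower in HELLS KO. LINC00689 is seen only in the HELLS KO libraries, while PTPRN is at most 0.437 CPM in all 6 libraries.

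Inside the PTPRN2 body, 8 other genes are annotated in the count table, and 1 of them had counts assigned to it. This was ENSG00000222012, a non-coding RNA of 2 exons on the + strand, antisense to PTPRN2, from 157614023 to 157618765. It lies in intron 15 of the PTPRN2 transcript, 969058 bases from the start site and 74967 bases from the end of the gene. It had 40, 33 and 33 counts in HAP1 against 2, 2 and 4 counts in HELLS KO, so that the genotypes did not overlap. The level was 2.20 ± 0.740 CPM in HAP1 against 0.147 ± 0.0148 in HELLS KO (SD, n = 3). In the fit over all genes the counts assigned to it fell by 3.80 on the log2 scale (standard error 0.48, adjusted p = 0.00859 from edgeR). The call was lost without HELLS KO replicate 1 (adjusted p = 0.0539, edgeR) or HELLS KO replicate 2 (adjusted p = 0.0667, edgeR), while the log2 fold change stayed between -4.06 and -3.59 with any 1 library left out.

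The exons of the antisense RNA share 0 bases with those of PTPRN2, and 0 of its 3265 stretches of 31 bases occur in other transcripts. The kit marks the strand, but the strand setting of the counting is not given in the sources used here, so reads from unspliced PTPRN2 and reads from the antisense RNA cannot be told apart. Replicate 3 had 0.904 times the ENSG00000222012 counts of the other replicates in HAP1 and 2.0 times in HELLS KO, the latter from at most 4 counts per library. The other 7 genes inside the body, among them PTPRN2-AS1, MIR153-2 and MIR595, had 0 counts in every library.

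The other genes around PTPRN2 served as a control for the copy number of this part of 7q36, near the end of the chromosome, which lies 758150 bases beyond the PTPRN2 start site. Within 5 Mb of the gene, 88 other genes were in the count table and 29 were tested. Of these, 1 was called higher and 1 lower, against 2.22% of all tested genes called in either direction. The median log2 fold change was -0.015 over the 29 genes, 0.020 over the other 843 tested genes of chromosome 7 and 0.0064 over all tested genes. Of the 17 protein-coding genes tested, 0 were called by edgeR, DESeq2 or limma, which is near the share of all tested genes in a list this short. An unadjusted p under 0.05 in edgeR was found for 1 of them, against 1181 of all 17925 tested genes. The summed level of the 28 tested genes outside the PTPRN2 body was 1653 ± 118 CPM in HAP1 against 1633 ± 152 CPM in HELLS KO (SD, n = 3).

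The nearest tested coding genes on either side showed no difference beyond the spread between replicates. Towards the centromere, DNAJB6, a co-chaperone of the HSP40 family 121617 bases from PTPRN2, had 119 ± 6.31 CPM in HAP1 against 122 ± 0.638 in HELLS KO (SD, n = 3). UBE3C, a ubiquitin ligase 269686 bases away, had 193 ± 21.2 and 191 ± 20.6 CPM. Towards the telomere, NCAPG2, a condensin II subunit 43346 bases from PTPRN2, had 164 ± 15.3 CPM in HAP1 against 164 ± 19.2 in HELLS KO (SD, n = 3). ESYT2, which tethers the endoplasmic reticulum to the plasma membrane, had 137 ± 16.1 and 138 ± 17.2 CPM. DYNC2I1, a subunit of the dynein of cilia, had 63.2 ± 0.705 and 60.5 ± 4.92 CPM. The log2 fold changes of these 5 genes lay between -0.062 and 0.036, each with an adjusted p of 1.0 (edgeR). PTPRN2, with 6.05% of its HAP1 level left, lay between these genes on both sides, and gene counts do not show the number of copies of PTPRN2 itself.

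Further towards the telomere, 1 gene rose. LINC00689, a non-coding RNA on the + strand of chromosome 7 from 159006522 to 159030195, begins 418699 bases beyond PTPRN2. It had 0, 0 and 0 counts in HAP1 against 24, 13 and 78 counts in HELLS KO. All HELLS KO libraries were above all HAP1 libraries, and replicate 3 was the highest. Its level of 1.92 ± 1.17 CPM (SD, n = 3) in HELLS KO was at least 10.4-fold higher than in HAP1, where 3 counts per library were taken as the limit (adjusted p = 0.0356, edgeR). The call was lost without any 1 of the 6 libraries, with adjusted p between 0.0521 and 0.148 in edgeR. Of its stretches of 31 bases, 23.8% occur in other genes on either strand, most of them in VIPR2. This receptor gene, on the - strand from 159028175 to 159144867, overlaps the end of LINC00689. VIPR2 had 1, 2 and 1 counts in HAP1 against 7, 0 and 12 in HELLS KO. The reads of LINC00689 are uncertain to that degree, since the strand setting of the counting is not given.

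The remaining extremes of the neighbourhood were not called. SHH, the Sonic hedgehog morphogen, had a log2 fold change of -1.25 (standard error 0.51) with 31, 28 and 17 counts in HAP1 against 8, 11 and 17 in HELLS KO. CNPY1 was at -0.39 (standard error 0.27). The non-coding LINC01287 was at 1.95 (standard error 0.78), with 0, 6 and 12 counts in HAP1 against 17, 12 and 44 in HELLS KO, and ENSG00000272760 at 0.87 (standard error 0.39). The adjusted p of these 4 genes was between 0.645 and 1.0 (edgeR). The annotated genes next to the PTPRN2 body were near 0, with 0, 0 and 0 counts in HAP1 against 2, 4 and 4 in HELLS KO for ENSG00000280266, 11731 bases beyond its end, and 0 in all libraries for LINC01022, 2806 bases before its start.

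Around PTPRN on chromosome 2, 69 of 205 genes within 5 Mb were tested. Of these, 0 were called by edgeR, DESeq2 or limma, and 4 had an unadjusted p under 0.05 in edgeR, against 2.22% of all tested genes called and 1181 of 17925 at an unadjusted p under 0.05, with a median log2 fold change of -0.020. DNAJB2, another HSP40 co-chaperone and the nearest tested gene, 2725 bases away, had 89.2 ± 12.3 CPM in HAP1 against 78.3 ± 9.94 in HELLS KO (SD, n = 3). On the other side, DNPEP, an aspartyl aminopeptidase, had 91.5 ± 11.4 and 92.3 ± 8.70 CPM. RESP18, an endocrine granule gene related to the lumenal domain of the members and the next gene after PTPRN, had 0 counts in every library. The lowest log2 fold changes were -1.13 for WNT6 (standard error 0.92), -1.11 for DNPEP-AS1 (standard error 0.46) and -0.88 for INHA (standard error 0.37). The highest were 0.42 for SGPP2 (standard error 0.30), 0.33 for ENSG00000261338 (standard error 0.26) and 0.31 for ABCB6 (standard error 0.31).

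**Figure D2:**
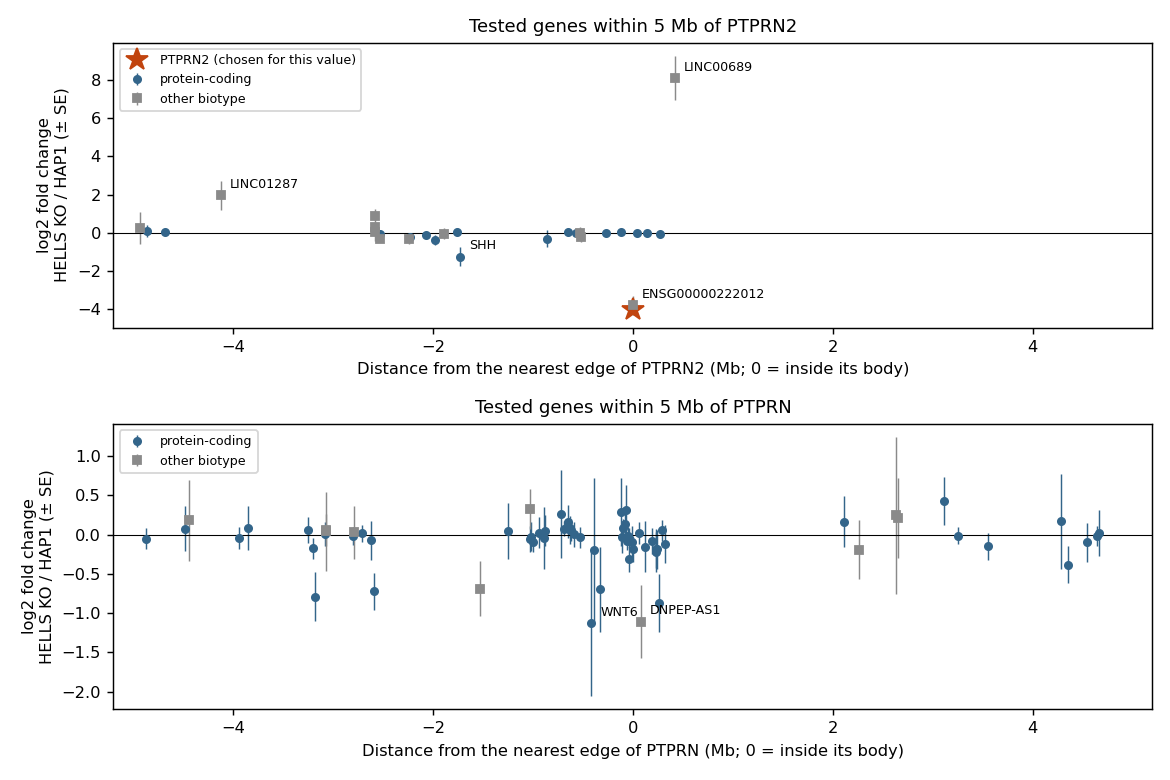
Fitted log2 fold change, HELLS KO over HAP1 (± standard error, all 6 libraries), of every tested gene against its distance in Mb from the nearest edge of PTPRN2 (top) and of PTPRN (bottom, with a narrower vertical range). Coding genes around PTPRN2 lie near 0 apart from SHH at -1.25 and CNPY1 at -0.39, while PTPRN2 and ENSG00000222012 at distance 0 are near -4, and the high fitted value of LINC00689 rests on 0 counts in HAP1 and is no measured fold.

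Receptor-type tyrosine phosphatases span the membrane and remove phosphate from tyrosine on other proteins, and most have roles in adhesion and growth factor signalling. Of the 18 other receptor-type phosphatase genes, 10 were tested, and 0 of these were called by edgeR, DESeq2 or limma. An unadjusted p under 0.05 in edgeR was found for 1 of them. Over all 17925 tested genes, 2.22% were called and 1181 had an unadjusted p under 0.05 in edgeR. A count of 0 in a list this short is near that share. The median log2 fold change of the 10 genes was -0.063, and their values lay between -0.61 and 0.15. The most abundant per length was PTPRU, with 35.2 ± 6.68 FPKM (the authors' values scaled by gene length, SD, n = 3) in HAP1 and 33.4 ± 4.30 in HELLS KO. PTPRA had 31.7 ± 2.05 and 29.6 ± 2.15 FPKM, PTPRF 30.5 ± 5.57 and 28.4 ± 5.43, and PTPRS 20.1 ± 4.77 and 19.4 ± 3.29. None of these 4 differed beyond the spread between its replicates.

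PTPRN2 moved within the order of this family. In HAP1 it was number 7 of the 17 family genes in the FPKM table, with 5.65 ± 0.133 FPKM (SD, n = 3), and its libraries lay within the range of PTPRD above it and of PTPRK below it. In HELLS KO it was number 10, with 0.340 ± 0.0297 FPKM (SD, n = 3), below PTPRE in every library and overlapping with PTPRB. Among all tested genes, 44.1% had a lower mean FPKM than PTPRN2 in HAP1 and 5.77% in HELLS KO. PTPRN was number 15 in HAP1, at 0.0203 ± 0.0281 FPKM, and number 16 in HELLS KO, at 0.0142 ± 0.00900 FPKM (SD, n = 3). Its libraries overlapped with those of PTPRM above it and PTPRZ1 below it in HAP1, where this end of the order is not resolved.

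The rest of the dense-core granule was examined through 46 genes in 5 lists. Of these, 34 were tested, 0 were called higher and 1 was called lower, against 1.5% and 0.72% of all tested genes, with a median log2 fold change of -0.023 against 0.0064 over all tested genes. The gene that fell was QPCT, glutaminyl cyclase, which forms the pyroglutamate at the start of many peptide hormones. QPCT had 114, 125 and 255 counts in HAP1 against 8, 10 and 30 counts in HELLS KO, without overlap. Its level was 9.25 ± 1.31 CPM in HAP1 against 0.827 ± 0.359 in HELLS KO (SD, n = 3), so that it fell by 3.43 on the log2 scale (standard error 0.35, adjusted p = 0.00338, edgeR). The call held in all 14 alternatives in which the gene was tested, but the lists were chosen with earlier results of these data known. QPCT lies on chromosome 2 from 37342827 to 37373322, far from PTPRN.

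The granins, acidic cargo proteins that aggregate in the forming granule, were scarce. Of 7 genes, 3 were tested and 0 were called by edgeR, DESeq2 or limma, against 2.22% of all tested genes in edgeR. At an unadjusted p under 0.05 in edgeR there were 0, against 1181 of all 17925 tested genes. VGF was the highest granin, with 3.64 ± 1.99 FPKM in HAP1 against 2.94 ± 1.62 in HELLS KO (SD, n = 3). CHGA, the granin used most as a neuroendocrine marker, had 0, 0 and 2 counts in HAP1 against 4, 2 and 2 in HELLS KO. The summed granin level was between 6.84 and 16.4 CPM in the HAP1 libraries and between 6.28 and 14.4 in the HELLS KO libraries.

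Among the 5 prohormone processing genes, the convertases PCSK1 and PCSK2, which cut prohormones in the granule, had at most 3 counts in any library. CPE, the carboxypeptidase that trims the cut ends, had 707, 752 and 1073 counts in HAP1 against 1047, 1023 and 1454 in HELLS KO. As CPM this was 49.7 ± 4.99 and 67.8 ± 6.975 (SD, n = 3), with no overlap, but CPE was not called, at 0.45 on the log2 scale (standard error 0.14, adjusted p = 0.354, edgeR). PAM, the enzyme that amidates peptides, had 46.7 ± 5.87 CPM in HAP1 against 56.8 ± 8.53 in HELLS KO (SD, n = 3) and was not called (adjusted p = 1.0, edgeR).

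The lists for the granule membrane, its biogenesis, and its docking and fusion had 2, 7 and 19 tested genes. Of these, 0 were called by edgeR, DESeq2 or limma, with 0, 0 and 1 genes at an unadjusted p under 0.05 in edgeR. Over all 17925 tested genes, 2.22% were called and 1181 had an unadjusted p under 0.05 in edgeR. The medians of the lists were -0.11, -0.055 and 0.0010 on the log2 scale. These genes also serve secretion and membrane traffic in cells without dense-core granules, and many were abundant. CYB561, a cytochrome of the granule membrane, had 90.4 ± 1.996 CPM in HAP1 against 93.0 ± 4.68 in HELLS KO (SD, n = 3). RAB2A, a small GTPase of the early secretory pathway, had 125.7 ± 6.14 and 122.5 ± 1.68 CPM. VAMP2, a vesicle SNARE, had 83.5 ± 11.4 and 84.4 ± 14.5 CPM. These 3 genes differed by less than the spread between replicates.

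**Figure D3:**
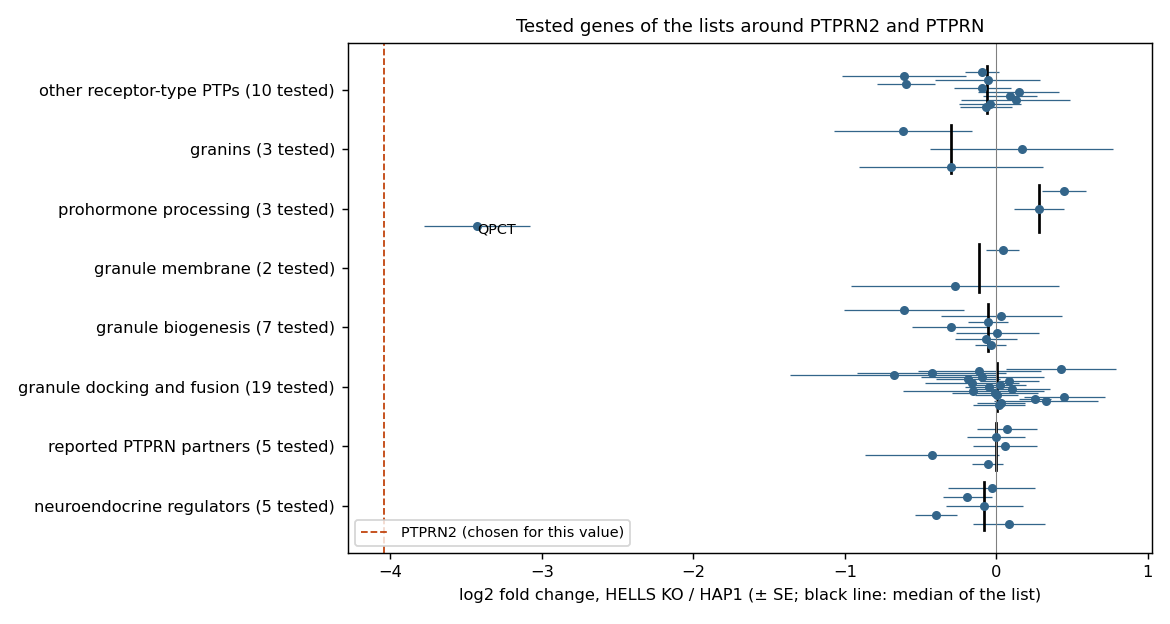
Fitted log2 fold change, HELLS KO over HAP1 (± standard error, all 6 libraries), of the tested genes of the 8 lists other than cell type markers, with the median of the list as a black line and PTPRN2 as a dashed line. QPCT at -3.43 stands apart, and the other tested genes of these 8 lists lie between -0.68 and 0.45.

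The 5 genes reported to bind PTPRN protein or, in the case of PTBP1, granule gene mRNAs were all tested, and 0 were called by edgeR, DESeq2 or limma, with 0 at an unadjusted p under 0.05 in edgeR. PTBP1, an RNA-binding protein, had 317 ± 57.9 CPM in HAP1 against 316 ± 58.9 in HELLS KO (SD, n = 3). STAT5B, a transcription factor of cytokine signalling, had 133.5 ± 0.427 and 128 ± 8.61 CPM. Of the 10 transcription factors of neuroendocrine and islet cells, 5 were tested and 0 were called by these tools. An unadjusted p under 0.05 in edgeR was found for 1, PAX6. Beside both lists, 2.22% of all 17925 tested genes were called and 1181 had an unadjusted p under 0.05 in edgeR. REST, the repressor of neuronal genes outside neurons, was at 0.082 on the log2 scale (standard error 0.24, adjusted p = 1.0, edgeR). NKX2-2 had 19.4 ± 4.53 CPM in HAP1 against 18.4 ± 4.13 in HELLS KO (SD, n = 3), and ISL1 had 21.4 ± 0.961 and 18.7 ± 2.32 CPM. PAX6 was lower in HELLS KO without overlap, with 35.0 ± 1.355 CPM in HAP1 against 26.5 ± 2.057 in HELLS KO (SD, n = 3). It was not called, at -0.40 on the log2 scale (standard error 0.14, adjusted p = 0.439, edgeR). INSM1, a zinc-finger factor of neuroendocrine cells, was at -0.032 (standard error 0.28), and NEUROD1 had 0 counts in every library.

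Among markers of cells that are rich in PTPRN2, the islet and chromaffin lists had lower summed levels than the neuronal list in both genotypes. Of 6 islet markers, INS, SST and IAPP had 0 counts in every library. The summed level of the list was between 2.92 and 13.7 CPM in HAP1 and between 4.89 and 10.9 in HELLS KO. Most of it was MAFA, at 9.49 ± 5.698 CPM in HAP1 against 7.55 ± 3.504 in HELLS KO (SD, n = 3). PDX1, which was not tested, had 0, 2 and 0 counts in HAP1 against 6, 8 and 30 in HELLS KO. GCG, also not tested, had 0, 6 and 0 counts in HAP1 against 0 in every HELLS KO library. The 4 adrenal chromaffin markers summed to between 1.75 and 3.06 CPM in HAP1 and between 0.575 and 2.06 in HELLS KO. The 8 neuronal markers summed to between 17.6 and 21.1 CPM in HAP1 and between 22.4 and 29.6 in HELLS KO, without overlap, and ELAVL4 had 0 counts. The members of this list differed in direction, with SYT1 at 0.85 and MAP2 at 0.53 on the log2 scale against SYN1 at -0.77 and RBFOX3 at -0.25, and the part of these markers in the PTPRN2 result was not tested. Of these 3 lists, 5, 1 and 1 genes were tested for neuronal, islet and chromaffin cells, and 0 were called by edgeR, DESeq2 or limma. At an unadjusted p under 0.05 in edgeR there were 1, 0 and 0. Over all 17925 tested genes, 2.22% were called and 1181 had an unadjusted p under 0.05 in edgeR. The 11 myeloid markers summed to between 132 and 147 CPM in HAP1 and between 97.8 and 125 in HELLS KO, and their part in the PTPRN2 result was not tested. Of the 3 tested, KIT, the receptor of stem cell factor, fell. It had 27.0 ± 10.4 CPM in HAP1 against 3.56 ± 1.85 in HELLS KO (SD, n = 3), and fell by 2.90 on the log2 scale (standard error 0.43, adjusted p = 0.0153, edgeR). The call of KIT was lost in 3 of 15 alternatives. Among them were the fits without HELLS KO replicate 1 (adjusted p = 0.0693, edgeR) and without HELLS KO replicate 2 (adjusted p = 0.111, edgeR).

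The genes whose levels followed PTPRN2 most closely over the 6 libraries were BRINP3, ABCA1, FBXO17, MYOM1 and GREB1, with Pearson's r of log2 CPM between 0.994 and 0.999. This is a description over 6 libraries that share genotype and depth, and 19 tested genes reached 0.99 or more while 100 were at -0.99 or less. BRINP3, a gene of a family that restrains the cell cycle in neural cells, had 41, 40 and 87 counts in HAP1 against 0 in every HELLS KO library. Its HAP1 level of 3.14 ± 0.422 CPM (SD, n = 3) was at least 17.5-fold higher than in HELLS KO, where 3 counts per library were taken as the limit. FBXO17, an F-box protein gene on chromosome 19, had 11.96 ± 1.43 CPM in HAP1 against 0.373 ± 0.0744 in HELLS KO (SD, n = 3). MYOM1, which encodes a structural protein of the muscle M-band, had 52.0 ± 3.28 and 6.56 ± 0.675 CPM. ABCA1, the cholesterol efflux transporter, had 16.3 ± 0.480 and 4.36 ± 0.380 CPM, and GREB1, a gene known for its response to estrogen, had 34.3 ± 3.92 and 7.15 ± 0.618 CPM. All 5 are on other chromosomes than PTPRN2. None overlapped between the genotypes, which follows from their choice by correlation with PTPRN2 and is no separate result. Their likeness lies in the gap between genotypes, and the libraries within a genotype varied less than that gap.

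**Figure D4:**
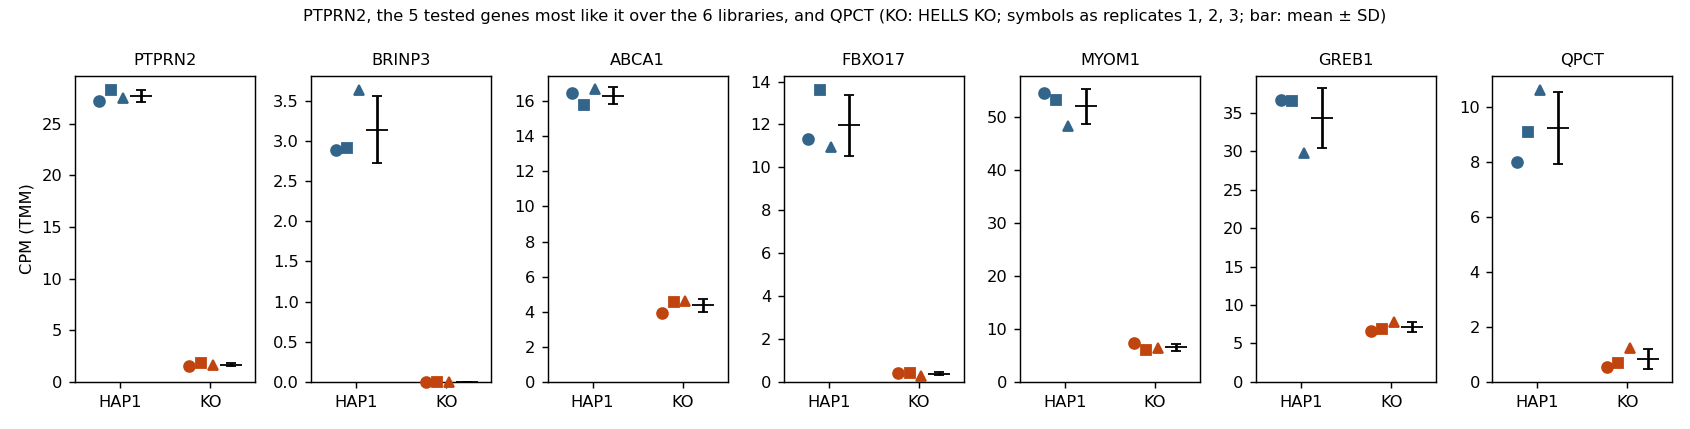
Level in CPM (TMM scaling, linear axes with a different range in each panel) of PTPRN2, of the 5 tested genes most correlated with it and of QPCT, with 1 symbol per library and mean ± SD (n = 3) as bars. In every panel the 3 HELLS KO libraries lie below the 3 HAP1 libraries, with means from 7.15 CPM for GREB1 down to 0 counts for BRINP3. For PTPRN2 and the 5 correlated genes this follows from how they were chosen.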

How the data were processed

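RNA-seq libraries of HAP1 and HELLS KO cells (3 each, total RNA, NEB Next Ultra II Directional kit) were analysed from the processed files. The authors aligned read pairs with STAR 2.7.3a to GRCh38, discarded duplicates and reads mapped at a quality under 20, counted genes with featureCounts 2.0.6 and deposited raw counts. The annotation release and the strand setting are not given in the sources used here. They also deposited FPKM values of 24956 genes, 100% of which were recomputed within 0.1% from the counts, DESeq2 size factors and a gene length, so FPKM adds only that length. Symbols and coordinates came from GENCODE release 44 by identifier without version (56321 of 60483 rows matched), and promoter and miRNA sequences from RefSeq.

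Counts were tested with edgeR 4.0.16 in R 4.3.3 (filterByExpr, TMM, glmQLFit and glmQLFTest, no covariate, Benjamini-Hochberg adjustment over 17925 genes). Calls needed an adjusted p under 0.05 together with a log2 change of 1 or more in either direction. CPM used the TMM-scaled library sizes. Correlations used log2 CPM with a prior count of 0.5. Nothing states that the libraries of a genotype came from separate cultures beyond the name biological replicates, so p-values measure the spread between these libraries.

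The members and gene lists were chosen with earlier results of these data known. Genes were named by a rule: members, HELLS, overlapping and nearest genes, called genes of the lists and neighbourhoods, the 3 highest and 3 lowest neighbours, the most abundant genes of each list, and the 5 genes most correlated with PTPRN2 (PTPRN was not tested and has none). CHGA, PCSK1, PCSK2, INSM1, NEUROD1, VIPR2, UBE3C, ESYT2, DYNC2I1, DNPEP, SLC30A8, PTPRH, PTPRO and CT75 were named after their values were seen. So were the markers at 0, the islet and neuronal markers, and the phosphatases next to the members in the FPKM order. Neighbours and lists are given as counts and medians, and the values of 1 gene that the rule names are not reported here.

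Alternatives were DESeq2 1.42.0, upper-quartile scaling, no filter, a minimum of 10 counts per library, a block for the replicate number, a batch term for replicate 3, each library left out, replicates 1 and 2 only, limma 3.58.1 on log2(FPKM + 1) and log2(FPKM + 0.1), a 1 Mb window and coding genes only. Deviations from the genotype mean correlated at 0.42, 0.20 and 0.78 for replicates 1, 2 and 3, and the labels give replicate 3 of both genotypes a shared batch, so the numbers were treated as pairs in the blocked fit. Replicates 1 and 2 are not told apart by this check, since HAP1 replicate 2 correlated at 0.59 with HELLS KO replicate 1 and HAP1 replicate 1 at 0.33 with HELLS KO replicate 2. The chi-square per gene between libraries of a genotype was at least 2.33, so none was a copy. On simulated counts for this comparison with log2 changes of 2, edgeR recovered 190 of 191 changed genes with 3 false calls among 17581 genes, DESeq2 187 and limma 182. Unlike the data, the simulated counts had the same dispersion for every gene and no batch in replicate 3. This recovery checks the steps of the fit and does not give the sensitivity in the data.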

Additional observations from a re-analysis of the deposited data

How the results depend on the processing

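The level of PTPRN2, a gene chosen for its decrease, kept its direction in all 15 alternatives, which is no separate result. It lay between -4.10 and -3.98 on the log2 scale with 1 library left out, and was smaller in size on log2(FPKM + 1), at -2.31, and log2(FPKM + 0.1), at -3.71, scales that compress low values. The difference in mean PTPRN level, HELLS KO minus HAP1, was -0.049 CPM and between -0.13 and 0.084 CPM with 1 library left out. The number of genes called higher was 269, and 415 without a filter, 29 with the minimum of 10 counts, 164 with limma on log2(FPKM + 1) and 112 to 273 with 1 library left out. The number called lower was 129, and 232 with DESeq2, 200 without a filter, 48 with the minimum of 10 counts, 285 with the batch term, 219 with replicates 1 and 2 only, 66 with limma on log2(FPKM + 1) and 40 to 176 with 1 library left out. With the replicate block it was 267, and the block changed no call of a gene named here. Of the 2 called genes within 5 Mb of PTPRN2, 0 remained with the minimum of 10 counts, with limma on log2(FPKM + 1) or among coding genes, 1 with replicates 1 and 2 only or limma on log2(FPKM + 0.1), and 0 to 1 with 1 library left out. The median of these neighbours stayed between -0.087 and 0.065. Around PTPRN, 1 gene was called without a filter, CT75. The listed genes other than cell type markers gave 2 calls without a filter, QPCT and SLC30A8, and 0 with the minimum of 10 counts, which leaves both out. PTPRN, with at most 6 counts in any library, did not pass the filter, and a fall of it could not be detected at this depth.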

Other observations

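Without the filter on low counts, 1 more listed gene and 1 gene near PTPRN were called. SLC30A8, the zinc transporter of the insulin granule, had 0, 0 and 0 counts in HAP1 against 5, 8 and 25 in HELLS KO (adjusted p = 0.013 without the filter, edgeR). CT75, within 5 Mb of PTPRN, had 10, 13 and 11 counts in HAP1 against 0 in every HELLS KO library (adjusted p = 0.00959 without the filter, edgeR). Other listed genes that the filter left out had small counts that were lower or higher in HELLS KO, such as PTPRH with 11, 6 and 2 counts in HAP1 against 2, 0 and 1 in HELLS KO, and PTPRO with 0, 0 and 0 against 4, 5 and 8.

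PTPRN2 is a very long gene, number 40 by length of body among 17688 tested genes with coordinates. Of the 42 tested genes with a body of at least 1000000 bases, 2 were called lower and 1 higher, against 0.72% and 1.5% of all tested genes. PTPRN2, which was chosen for its decrease, is 1 of the 2, so nothing is read from this count. The length limit was chosen after the values were seen.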
